A study of Mus musculus with 27 samples.

Results

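Wild-type microglia treated with LPS plus interferon-γ were set against wild-type microglia treated with CpG, to describe which genes separate the 2 stimuli. The libraries were chosen by their labels, genotype and agent: 3 of wild-type cells with LPS plus interferon-γ and 3 of wild-type cells with CpG, 6 of the 27 libraries of the study. Microglia, the resident macrophages of the brain, came from the cortices of neonatal C57BL/6J mice, were grown in mixed glial cultures and were shaken off the other glia before stimulation. The cells received LPS of E. coli at 100 ng/ml together with interferon-γ at 20 ng/ml, or CpG at 1 nmol/ml, and per the design text of the study were kept with the stimulus for 16 h. Wild-type unstimulated libraries of the same number series (n = 3) are given as the level without stimulus, and the same pair of stimuli in cells of CB2-/- mice (strain B6.Cg-Cnr2tm1Zim, n = 3 and 3), which lack the cannabinoid receptor CB2, serves as the one comparison outside wild type. Nothing in the labels ties the libraries of a group to different animals or dishes, so the scatter between libraries may be technical. The p-values rest on a spread per gene that all groups of the 27 libraries share, and not on the compared libraries alone. LPS and interferon-γ were given together, so what each of them did cannot be told apart here.

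LPS is sensed at the cell surface by Toll-like receptor (TLR) 4, which signals through the adaptor MyD88 and, from endosomes, through the adaptor TRIF, the branch that leads to type I interferon. CpG, an unmethylated DNA ligand, is sensed in endosomes by TLR9, which signals through MyD88 alone. Interferon-γ acts through its own receptor and the kinases JAK1 and JAK2, which lead to binding of the gamma-activated sequence (GAS). Type I interferon acts through its own receptor on a complex that holds STAT2 and IRF9 and binds the interferon-stimulated response element (ISRE). NF-κB, downstream of both TLRs, drives many cytokine genes in macrophages.

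Serpina3f and Serpina3g, neighbouring protease inhibitor genes among the 12 highest with LPS plus interferon-γ, moved together in this comparison, so the 250 bases before their RefSeq starts of transcription (GRCm38.p6) are shown, 5′ to 3′ on the plus strand. The window of Serpina3f lies at chr12:104214294-104214543 and that of Serpina3g at chr12:104235897-104236146. Capitals mark the longest run of bases that both windows share.
Serpina3f: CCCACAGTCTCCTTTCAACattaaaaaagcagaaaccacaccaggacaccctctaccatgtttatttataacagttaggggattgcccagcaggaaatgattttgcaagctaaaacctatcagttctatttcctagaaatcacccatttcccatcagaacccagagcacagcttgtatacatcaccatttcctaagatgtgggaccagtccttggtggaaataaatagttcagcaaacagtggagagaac
Serpina3g: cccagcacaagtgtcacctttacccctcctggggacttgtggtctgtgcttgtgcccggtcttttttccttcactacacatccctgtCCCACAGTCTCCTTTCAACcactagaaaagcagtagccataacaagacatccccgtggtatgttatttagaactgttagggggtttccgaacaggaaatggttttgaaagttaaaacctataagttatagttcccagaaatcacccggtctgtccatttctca
The shared run is 19 bases long and lies 250 to 232 bases before the start of Serpina3f and 163 to 145 before that of Serpina3g. It describes the likeness of the 2 copies and not a bound site. Genes this alike may also share reads, so the value of each is uncertain.

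One library stood apart. Wild-type CpG replicate 1 had values above 0 for 13628 of 23995 genes, against 15347 to 20643 in the other 5 libraries, and it received a weight of 0.14 where the others had 0.54 to 1.83 (limma arrayWeights). Its summed markers of astrocytes stood at 101 normalised counts, with 7 of 14 markers at 0, against 835 to 1653 in the other 5 libraries. Markers of fibroblasts and meninges summed to 614 there (8 of 14 at 0), to 7674 and 8173 in the other CpG libraries and to 1981 to 2871 with LPS plus interferon-γ. Fn1 alone held 567, 6245 and 5765 of the CpG sums and 1083 to 1648 with LPS plus interferon-γ. Unstimulated replicate 1 was low too, with an astrocyte sum of 272 (5 of 14 at 0) and 6 of 14 fibroblast markers at 0. Oligodendrocyte markers summed to 956 in CpG replicate 1 (7 of 11 at 0) and to 1143 to 1692 in the other 5 libraries. Markers of microglia and macrophages were high in all 6, at 75067 to 86997 with none of 13 at 0, while Cd3d, Cd4 and Ms4a1, the lymphocyte markers with values, were each at most 12.5. The part that these markers play in the results was not tested, so a wild-type difference that moves by over 1.5 times without CpG replicate 1 is given both ways; the order of genes is that with all 6 libraries. Taking the smallest recurring step of the values as 1 read puts the depth at about 2.5 to 18 M reads. In bulk RNA, fewer cells of a type and less RNA per cell cannot be told apart.

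**Figure D1:**
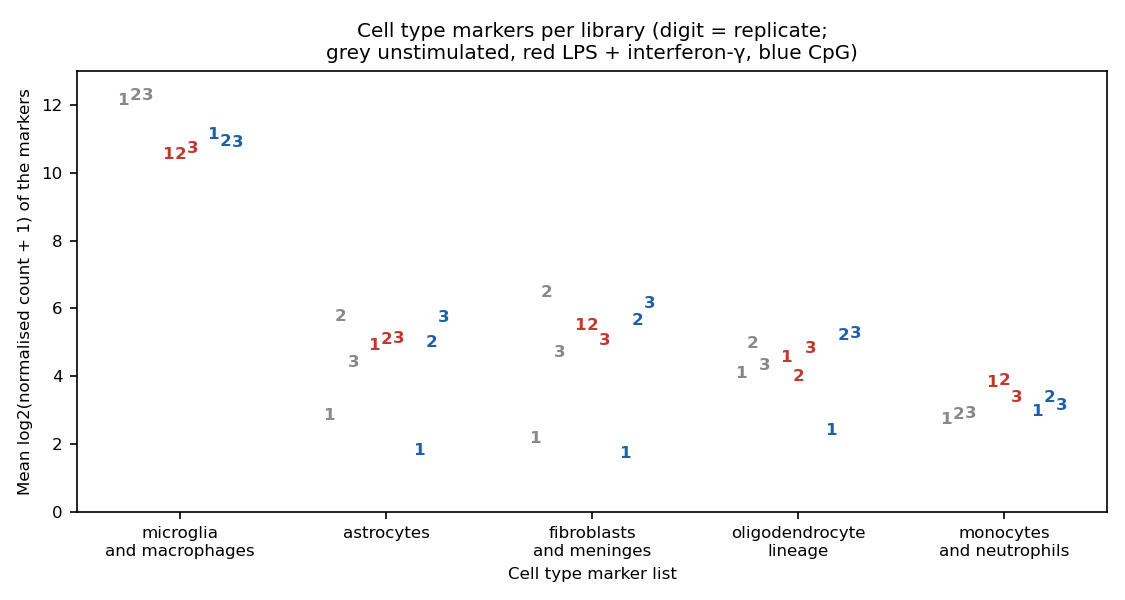
Mean log2(normalised count + 1) of 5 lists of cell type markers in each library, with digits for the replicate and colours for unstimulated, LPS plus interferon-γ and CpG. CpG replicate 1 lies lowest for astrocyte, fibroblast and oligodendrocyte markers, and the microglia list lies highest in all libraries.

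The 2 stimuli separated many genes. Of 14668 genes tested, 2887 (19.7%) were higher and 1925 (13.1%) lower with LPS plus interferon-γ than with CpG at an adjusted p under 0.05 (limma, Benjamini-Hochberg, BH), and without CpG replicate 1 the counts were 2471 and 1703. The separation was uneven in size: 1155 of the higher genes and 246 of the lower ones differed at least 4-fold, and 269 and 19 at least 16-fold. For 6185 of the 14668 genes the libraries of the 2 groups did not overlap. The 12 highest and 12 lowest genes below were chosen among such genes. Differences are given as log2 of LPS plus interferon-γ minus CpG after adding 1 to each value, a step that shrinks the difference of low genes. The deposited scaling leaves the median difference of all genes at 0.15. Quantile scaling moved that median by -0.28 and gave 2122 higher and 2737 lower, and scaling all libraries to the same sum moved it by -0.44 and gave 1442 higher and 3157 lower, so small differences are relative to that shift.

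**Figure D2:**
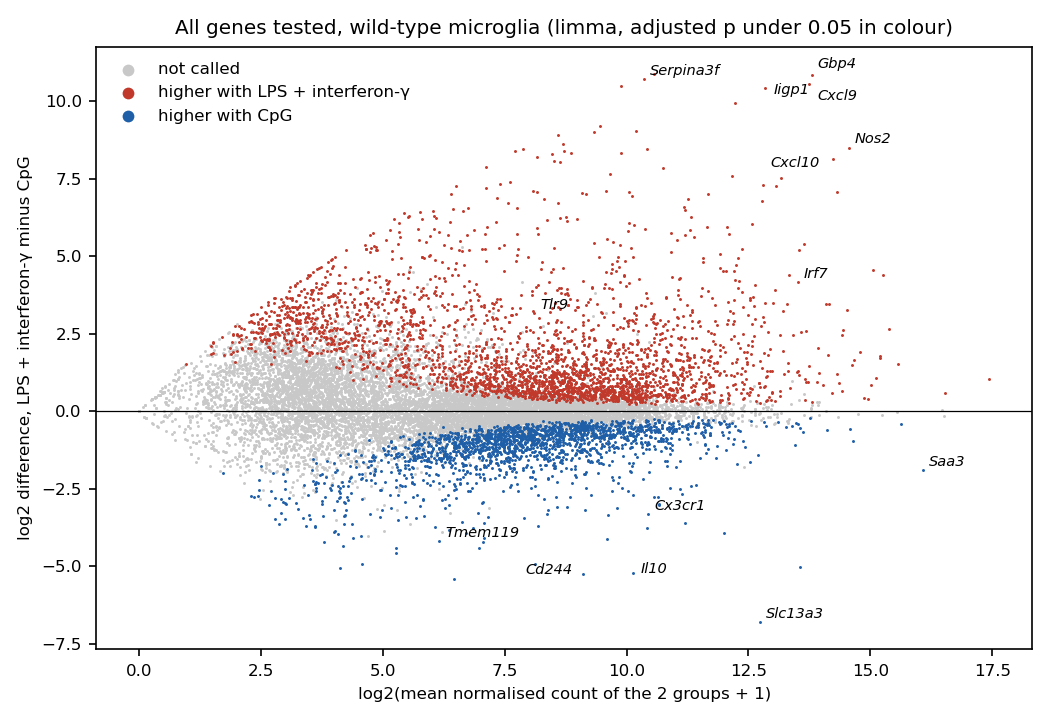
Log2 difference between LPS plus interferon-γ and CpG against the mean level of the 2 groups for the 14668 genes tested, with called genes in colour. The widest differences lie on the LPS plus interferon-γ side, where 269 genes differed at least 16-fold against 19 on the CpG side.

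The genes highest with LPS plus interferon-γ included GTPases and chemokines known to be induced by interferon. For Gbp4, Fam26f, Tgtp2 and Trim30c every CpG library lay below every unstimulated one. Gbp4, a guanylate-binding protein that acts against intracellular pathogens (chromosome 5, 105115767 to 105139586 in GRCm38, minus strand), had 26728, 29277 and 29076 normalised counts with LPS plus interferon-γ. It had 10.5, 16.2 and 17 with CpG, below the 21.8, 54.3 and 49.3 without stimulus. The difference was 10.86 ± 0.31 (SE; adjusted p = 3.13e-18, limma, BH), and 10.65 without CpG replicate 1. Iigp1, an immunity-related GTPase, had 14367, 15422 and 14105 against 1.47, 22.3 and 19.8, with 11.9 to 28.1 unstimulated. Tgtp2, an interferon-induced GTPase, had 8827, 9728 and 10181 against 17.7, 2.23 and 14, with 31.4 to 128 unstimulated. The differences of these 2 genes were 10.43 ± 0.54 and 9.95 ± 0.49, and Iigp1 stood at 9.38 without CpG replicate 1.

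The 3 chemokines that signal through the receptor CXCR3 and attract T cells, neighbours on chromosome 5 between 92321347 and 92365485, separated the stimuli as a block. Cxcl9 had 27510, 26728 and 27450 with LPS plus interferon-γ and 19.4, 26.8 and 9.18 with CpG (10.57 ± 0.93). Cxcl10 had 36986, 38479 and 39416 against 70.2, 170 and 206 (8.14 ± 0.41), and Cxcl11 had 2723, 2617 and 2859 against 1.56, 14.7 and 10.8 (8.45 ± 0.62). Unstimulated values were 0.947 to 32 for Cxcl9, which hold all its CpG values, and 11.8 to 81 for Cxcl10, where CpG replicates 2 and 3 lay above them. For Cxcl10 and Cxcl11, CpG replicate 1 was the lowest library, and without it the differences were 7.67 and 7.65.

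The protease inhibitor Serpina3f had 2699, 2556 and 2582 against 0, 2.67 and 0, and its neighbour Serpina3g 1331, 1323 and 1565 against 2.47, 0 and 2.81 (10.73 ± 0.99 and 9.21 ± 0.63). Both were at or near 0 without stimulus too, at 0 to 0.389 and 0. The calcium homeostasis modulator family gene Fam26f had 3161, 2806 and 3059 against 0, 0 and 3.15, and the chloride intracellular channel gene Clic5 1698, 1832 and 2168 against 0, 0 and 1.26. Both were listed at 0 in 2 of the 3 CpG libraries and were high in all LPS libraries (10.87 ± 0.54 and 10.49 ± 0.64). Batf2, a transcription factor of the basic leucine zipper class, and Trim30c, a tripartite motif gene, had differences of 9.04 ± 0.54 and 9.01 ± 0.46, or 7.96 and 8.35 without CpG replicate 1. Nos2, the inducible nitric oxide synthase, had 49456, 49814 and 44385 against 17.5, 322 and 380. Its CpG libraries spread widely, with replicate 1 the lowest, and the difference of 8.51 ± 0.82 was 7.09 without it. No adjusted p among these 12 genes exceeded 9.97e-09 in the main fit, and the highest over the alternatives was 0.00263, for Nos2 (limma, BH).

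**Figure D3:**
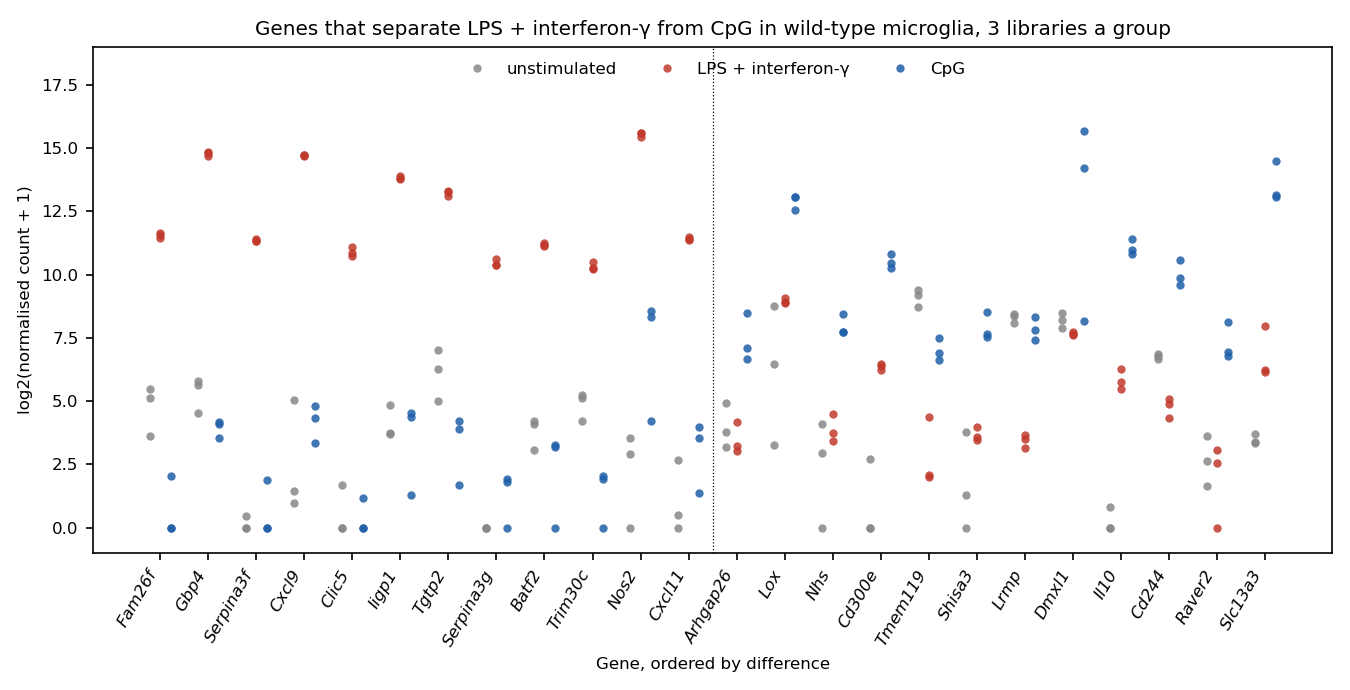
Log2(normalised count + 1) of the 12 genes highest with LPS plus interferon-γ (left) and the 12 highest with CpG (right), 1 point per library, with 3 unstimulated libraries beside 3 of each stimulus. The LPS plus interferon-γ points of the left genes lie close together, and among the right genes CpG points spread most for Dmxl1, where replicate 3 lies with the unstimulated libraries.

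The genes highest with CpG formed no single family. Slc13a3, a dicarboxylate transporter (chromosome 2, 165405028 to 165473230, minus strand), had 22788, 8585 and 9112 with CpG and 69.6, 73.5 and 248 with LPS plus interferon-γ. Unstimulated cells had 9.24 to 11.9, so both stimuli lay above them, and CpG lay highest (-6.79 ± 0.50, adjusted p = 1.03e-10, limma, BH). Il10, the anti-inflammatory cytokine interleukin-10, had 2729, 2003 and 1797 with CpG and 53.3, 43.9 and 76.5 with LPS plus interferon-γ. It was listed at 0 in 2 unstimulated libraries and at 0.738 in the third, and the stimuli differed by -5.22 ± 0.77 (adjusted p = 7.47e-06, limma, BH), or -5.05 without CpG replicate 1. Cd244, the SLAM family receptor 2B4, had 1535, 942 and 766 against 28.6, 18.9 and 32.8. Its unstimulated values of 101 to 115 lay between the stimuli (-5.26 ± 0.29).

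Cd300e, an activating receptor of myeloid cells, had 1791, 1410 and 1212 with CpG and 88.3, 74.9 and 82.9 with LPS plus interferon-γ (-4.13 ± 0.61). Lox, the lysyl oxidase that crosslinks collagen, had 6065, 8565 and 8479 against 479, 541 and 464 (-3.94 ± 0.70). The lowest CpG value of Lox, 6065 in replicate 1, lay above every LPS and unstimulated library. Raver2, Shisa3, Nhs and Arhgap26, which are an RNA-binding protein, a modulator of WNT and FGF signalling, a regulator of actin and a GTPase-activating protein, were lower by -5.40 to -3.93. For Lrmp and Tmem119, as for Cd244 and Dmxl1, every LPS library lay below every unstimulated one. Lrmp, a membrane protein of lymphoid cells, had 10.3, 7.97 and 11.7 with LPS plus interferon-γ, 324, 169 and 225 with CpG and 272 to 343 unstimulated. Tmem119, a marker of resident microglia, had 3.18, 2.96 and 19.8 with LPS plus interferon-γ, 180, 96.8 and 120 with CpG and 420 to 677 unstimulated (-4.20 ± 0.52).

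Dmxl1, a gene of the rabconnectin family, rested on 2 libraries. It had 18936 and 52587 in CpG replicates 1 and 2 but 285 in replicate 3, against 194, 200 and 209 with LPS plus interferon-γ and 239 to 353 unstimulated. The difference was -5.03 ± 1.31 (adjusted p = 0.00417, limma, BH) and -4.26 without CpG replicate 1. It did not pass with library weights, in the authors' batch-corrected table (-1.15, adjusted p = 0.249) or in fits on 12 or 6 libraries (limma, BH).

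Receptors of the stimuli themselves differed. Tlr9, the CpG receptor, had 65.4, 49.4 and 47.8 with CpG, 485, 435 and 553 with LPS plus interferon-γ and 359 to 439 unstimulated. CpG libraries were the low ones, and the groups did not overlap (3.16 ± 0.21, adjusted p = 1.41e-11, limma, BH). Tlr3, which senses double-stranded RNA, had 81, 90.3 and 98.6 with CpG and 791, 954 and 1049 with LPS plus interferon-γ (3.35 ± 0.21). Tlr4, the LPS receptor, had 245, 282 and 352 against 224, 232 and 194, with 758 to 788 unstimulated, so both stimuli were below the unstimulated level. Its difference of 0.42 ± 0.22 did not pass (adjusted p = 0.147, limma, BH) and turned to -0.04 with same-sum scaling. Of 26 Toll-like receptors and adaptors 13 were higher and 3 lower; their median of 0.40 turned to -0.02 with same-sum scaling. The 3 lower ones, Tirap, Tlr2 and Tlr1, differed by -0.70 to -0.47. Each of them lost its call under some alternatives, Tirap and Tlr1 without CpG replicate 1 and Tlr2 without CpG replicate 2.

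Genes of interferon signalling were higher with LPS plus interferon-γ, except the 2 genes of the interferon-γ receptor. Of 21 receptors, kinases and factors 19 were higher and 2 lower, with a median of 1.64, and 18 and 2 without CpG replicate 1. Ifngr1, the ligand-binding chain, had 407, 395 and 395 with LPS plus interferon-γ and 656, 692 and 658 with CpG (-0.74 ± 0.11), and Ifngr2, the other chain, differed by -0.39. Unstimulated cells had 2089 to 2456 of Ifngr1, above both stimuli. Irf1, a transcription factor that interferon-γ induces, had 11715, 11727 and 12293 against 240, 132 and 180, and 341 to 619 unstimulated (6.05 ± 0.20). Socs1, a feedback inhibitor of JAK kinases, had 2569, 1665 and 2274 against 2.91, 21.9 and 55.4 (6.96 ± 0.65, or 5.89 without CpG replicate 1). Irf7, a factor of the type I interferon response, had 20533, 20956 and 24686 against 1147, 1247 and 1259, with 2350 to 2630 unstimulated (4.17 ± 0.09). Irf1 and Irf7 with CpG thus lay below their unstimulated values. Ciita, the activator of class II genes, differed by 5.20 ± 0.78.

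All listed interferon-induced genes lay on one side. Of the 18 GTPases of the interferon-γ response 18 were higher and 0 lower, with a median of 6.68 and a range from 3.74 (Irgm2) to 10.86 (Gbp4). Gbp2, another guanylate-binding protein of that list, had 37899, 40269 and 42841 with LPS plus interferon-γ and 138, 394 and 493 with CpG, with 53.5 to 159 unstimulated (7.07 ± 0.33). CpG replicate 1 lay within the unstimulated range and the other CpG libraries above it. Of 37 genes of the type I interferon response 37 were higher and 0 lower, with a median of 3.25. Ifit2, Rsad2 and Ifit3b, which act against viral RNA and viral growth, had the highest values (7.29, 7.28 and 7.12; Ifit3b stood at 5.41 without CpG replicate 1 and was then not among the 3 highest), and the RNA sensor Dhx58 stood last at 1.79. Ifit1 had 7623, 7907 and 8685 with LPS plus interferon-γ and 391, 299 and 378 with CpG (4.51 ± 0.17). Without CpG replicate 1 the counts of both lists were the same, with medians of 6.36 and 3.35. Reads of Gbp, Tgtp and H2 genes may be split between near-identical copies, which leaves the value of each member uncertain.

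Antigen presentation genes were higher as well. Of 20 genes of class I presentation, from the peptide transporter to the heavy chains, 20 were higher, with a median of 3.18; Tapbpl, H2-T23 and Nlrc5 led with 4.01, 3.90 and 3.72, and H2-M3 stood last at 0.86, a call lost with same-sum scaling. Of 11 class II genes 9 were higher and 0 lower, with a median of 2.93. H2-Ab1, a class II chain, had 708, 667 and 652 against 73.1, 90.1 and 102, with 16 to 29.3 unstimulated (2.93 ± 0.27). Both stimuli thus lay above unstimulated cells for H2-Ab1, with LPS plus interferon-γ higher. Of 11 costimulatory and checkpoint genes 9 were higher and 1 lower, with a median of 3.46, or 2.62 without CpG replicate 1. Cd86, a ligand of CD28, had 8632, 8789 and 8435 against 89.5, 211 and 228, with 536 to 666 unstimulated (5.72 ± 0.22). Cd40 had 5997, 5797 and 5725 against 166, 258 and 208, with 8.68 to 26.5 unstimulated (4.81 ± 0.43). So CpG lay below the unstimulated level for Cd86 and above it for Cd40. Havcr2, the receptor TIM-3, had 662, 625 and 645 against 0, 30.1 and 22, with 823 to 904 unstimulated (6.17 ± 0.68, or 4.59 without CpG replicate 1). Vsir, which encodes the checkpoint protein VISTA, was the 1 lower gene (-2.47).

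Among 18 proinflammatory cytokines 15 were higher and 1 lower with LPS plus interferon-γ, with a median of 3.30, and 13 and 1 without CpG replicate 1. Tnfsf10 and Tnfsf15, ligands of the tumour necrosis factor family, led with 8.40 and 8.33, or 7.76 and 7.58 without CpG replicate 1. The interleukin-1α gene Il1a came next with 5.20, but stood at 3.63 without that library, below Il6. Il6 had 7976, 7846 and 6269 against 50.7, 488 and 403 (5.08 ± 0.67, or 4.04 without CpG replicate 1). Il1b had 44118, 45454 and 35979 against 1919, 6384 and 6425, with 2831 to 4712 unstimulated (3.28 ± 0.34). CpG replicate 1 was the lowest library for both, and the groups did not overlap. Tnf was nearer, at 11894, 11751 and 10030 against 2151, 3621 and 3716 (1.87 ± 0.21), and Il12b, the p40 subunit of interleukin-12, at 3996, 3774 and 2764 against 156, 916 and 903 (2.78 ± 0.59, or 1.93 without CpG replicate 1). Ebi3, which encodes a subunit of interleukin-27 and interleukin-35, was the 1 lower gene (-0.74). Of 21 chemokines 12 were higher and 1 lower, with a median of 2.64, or 12 and 2 with a median of 2.02 without CpG replicate 1. Ccl5, a chemokine that attracts T cells and monocytes, had 71477, 75993 and 73087 against 12733, 11119 and 11628 (2.64 ± 0.10), while Ccl4, which encodes macrophage inflammatory protein 1β, was lower (-1.08).

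Of 14 genes of interleukin-10 and other counter-regulation 7 were higher, with a median of 1.65, and Il10 was the 1 lower gene; without CpG replicate 1 6 were higher, with a median of 1.01. Cd274, which encodes the checkpoint ligand PD-L1, differed by 3.46 and the mitochondrial arginase Arg2 by 5.27, or 4.25 without that library. Arg1, the cytosolic arginase, had 829, 775 and 513 against 13.8, 860 and 1306; the groups overlapped, and the difference of 1.44 ± 1.19 (adjusted p = 0.388, limma, BH) turned to -0.62 without CpG replicate 1. NF-κB genes and their feedback regulators gave 14 of 24 higher and 4 lower, with a median of 0.73. The lower ones were Tnip3, Dusp2, Nfkbiz and Dusp1 (-1.79 to -0.80), and the call of Dusp1 was lost in the fit on 6 libraries alone. Of these, Nfkbiz encodes a nuclear cofactor of NF-κB and the Dusp genes phosphatases that act on MAP kinases.

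The 2 lists of inflammatory enzymes differed in their counts. In the list of nitric oxide, arginine, oxidant and itaconate enzymes 15 of 22 were higher and 1 lower, with a median of 1.21, and 15 and 0 without CpG replicate 1. Besides Nos2, the arginine transporter Slc7a2 differed by 5.39, or 4.47 without CpG replicate 1. Acod1, which makes itaconate, had 32936, 33954 and 31584 against 1217, 4678 and 4789, with 90.8 to 171 unstimulated (3.45 ± 0.33, or 2.79 without CpG replicate 1). Of 18 genes of prostaglandin and leukotriene metabolism 3 were higher and 1 lower, with a median of -0.22, shares below those over all genes, and 3 and 2 without CpG replicate 1. Ptgs2, the inducible cyclooxygenase, had 65465, 67534 and 62151 against 1214, 4348 and 3995 (4.56 ± 0.50), and the prostaglandin E2 receptor gene Ptger2 differed by 4.58; without CpG replicate 1 they stood at 3.96 and 3.18.

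Single matrix metalloproteinases went both ways. Of 16 genes with their inhibitors 5 were higher and 2 lower, with a median of 0.79. Without CpG replicate 1 they were 3 and 2, shares near those over all genes, with a median of 0.15. Mmp25 and the collagenase Mmp13 were higher (7.11 and 4.39; Mmp25 stood at 6.15 without CpG replicate 1), while Mmp9, the gelatinase B, was lower: it had 169, 182 and 138 with LPS plus interferon-γ and 949, 3344 and 3403 with CpG (-3.76 ± 0.67, or -4.37 without CpG replicate 1). Unstimulated cells had 0 to 11 of Mmp9, so both stimuli lay above them. Timp2, an inhibitor of metalloproteinases, was the other lower gene (-1.67). Acute phase genes were split in the same way: of 14 tested with serine protease inhibitors, Serpina3f, Serpina3g, Serpinb9 and C3 were higher, and haptoglobin (Hp, -3.41, or -4.12 without CpG replicate 1), ceruloplasmin (Cp, -2.39) and serum amyloid A3 (Saa3, -1.91) were lower.

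Genes of the inflammasome and of cell death gave 19 of 24 higher and 1 lower, with a median of 1.61, and 19 and 1 without CpG replicate 1. Mlkl, the effector of necroptosis, differed by 5.47, or 4.59 without CpG replicate 1, and the lower gene was Pycard, the inflammasome adaptor ASC (-1.04). Of 22 complement and Fcγ receptor genes 12 were higher and 3 lower; their median of 0.48 turned to -0.07 with quantile scaling. The C1 protease gene C1s1, the C1 inhibitor gene Serping1 and the factor B gene Cfb led (5.78, 5.71 and 5.35), and without CpG replicate 1 C1s1 and Serping1 stood at 5.14 and 4.54. Glycolysis and hypoxia genes gave 19 of 22 higher and 1 lower, with a median of 1.10, which was 0.46 and 0.64 with quantile and same-sum scaling and 0.79 without CpG replicate 1. Vegfa, the hexokinase gene Hk3 and the phosphofructokinase gene Pfkp led (3.61, 3.50 and 2.61), but without CpG replicate 1 Vegfa stood at 2.34, below the other two. Adm, which encodes adrenomedullin, was lower (-1.92), a call lost without the series term though the value stayed the same.

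Genes of resting microglia separated the stimuli in both directions, while their mean did not, and both stimuli lay below the unstimulated level. The mean log2 value of the list per library was 9.62 to 10.00 unstimulated. It was 7.15 to 7.29 with LPS plus interferon-γ and 7.02 to 7.31 with CpG. Of 28 homeostatic genes 10 were higher and 11 lower, with a median of -0.28. Both shares lay above those over all genes (19.7% and 13.1%). Some stood lower with LPS plus interferon-γ: Cx3cr1, the fractalkine receptor, differed by -3.32, Olfml3 by -3.20 and Tmem119 by -4.20. Others were lower with CpG: Entpd1, the ectonucleotidase CD39, differed by 6.84 (5.62 without CpG replicate 1), the purinergic receptor gene P2ry13 by 6.30 and Mertk, a receptor for dying cells, by 4.28. P2ry12, the ADP receptor of resting microglia, had 36, 39.1 and 24 with LPS plus interferon-γ and 14.6, 2.41 and 4.55 with CpG, with 301 to 385 unstimulated (2.32 ± 0.49, or 2.94 without CpG replicate 1). The chemokine receptor gene Cxcr4 had 36.8, 31.6 and 26 against 1.18, 14 and 6.64, with 1441 to 1664 unstimulated (2.35 ± 0.41, or 1.59 without CpG replicate 1). Both stimuli thus lay far below the unstimulated libraries for P2ry12 and Cxcr4, and CpG lay lowest; neither call passed in the fit on 6 libraries alone. Genes of disease-associated microglia gave 12 of 22 higher and 3 lower, and 8 and 2 without CpG replicate 1, led by Cst7, Lgals3 and Gpnmb (5.28, 3.68 and 3.44; Cst7 stood at 4.56 without that library).

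More cholesterol genes were called lower than higher with LPS plus interferon-γ. Of 26 genes of synthesis and efflux 4 were higher and 13 lower, with a median of -0.75, and 3 and 9 without CpG replicate 1. The lower ones were led by the synthesis genes Hsd17b7, Sqle and Idi1 (-2.82, -2.31 and -2.00). The higher ones included Abcg1, which exports cholesterol, Ch25h, which makes 25-hydroxycholesterol, and Abca1 (2.78, 1.38 and 0.73). The calls of Ch25h and Abca1 were lost with quantile and same-sum scaling, and that of Ch25h also without CpG replicate 1 (0.57). Of 31 ribosomal protein genes 24 were lower and 0 higher, with a median of -0.53. Genes of the cell cycle gave 5 of 28 higher and 5 lower, shares near those over all genes. Their median was -0.31, or -0.99 without CpG replicate 1. Scavenger receptors (8 of 19 higher and 5 lower), iron handling (5 of 15 and 5) and the unfolded protein response (11 of 21 and 2) had medians of 0.33, 0.35 and 0.34, which fell to values between -0.36 and 0.03 with quantile and same-sum scaling. Over all genes 19.7% were higher and 13.1% lower. Lysosomal genes gave 13 of 27 higher and 2 lower, with a median of 0.49, which was 0.11 and 0.03 with quantile and same-sum scaling. Nuclear genes of oxidative phosphorylation gave 3 of 21 and 0, shares below those over all genes, with a median of -0.08. Chemokine and purinergic receptors gave 14 of 23 and 3, with a median of 1.43. Growth factors gave 6 of 17 and 1, with a median of 1.47, or 4 and 1 with a median of 0.63 without CpG replicate 1.

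**Figure D4:**
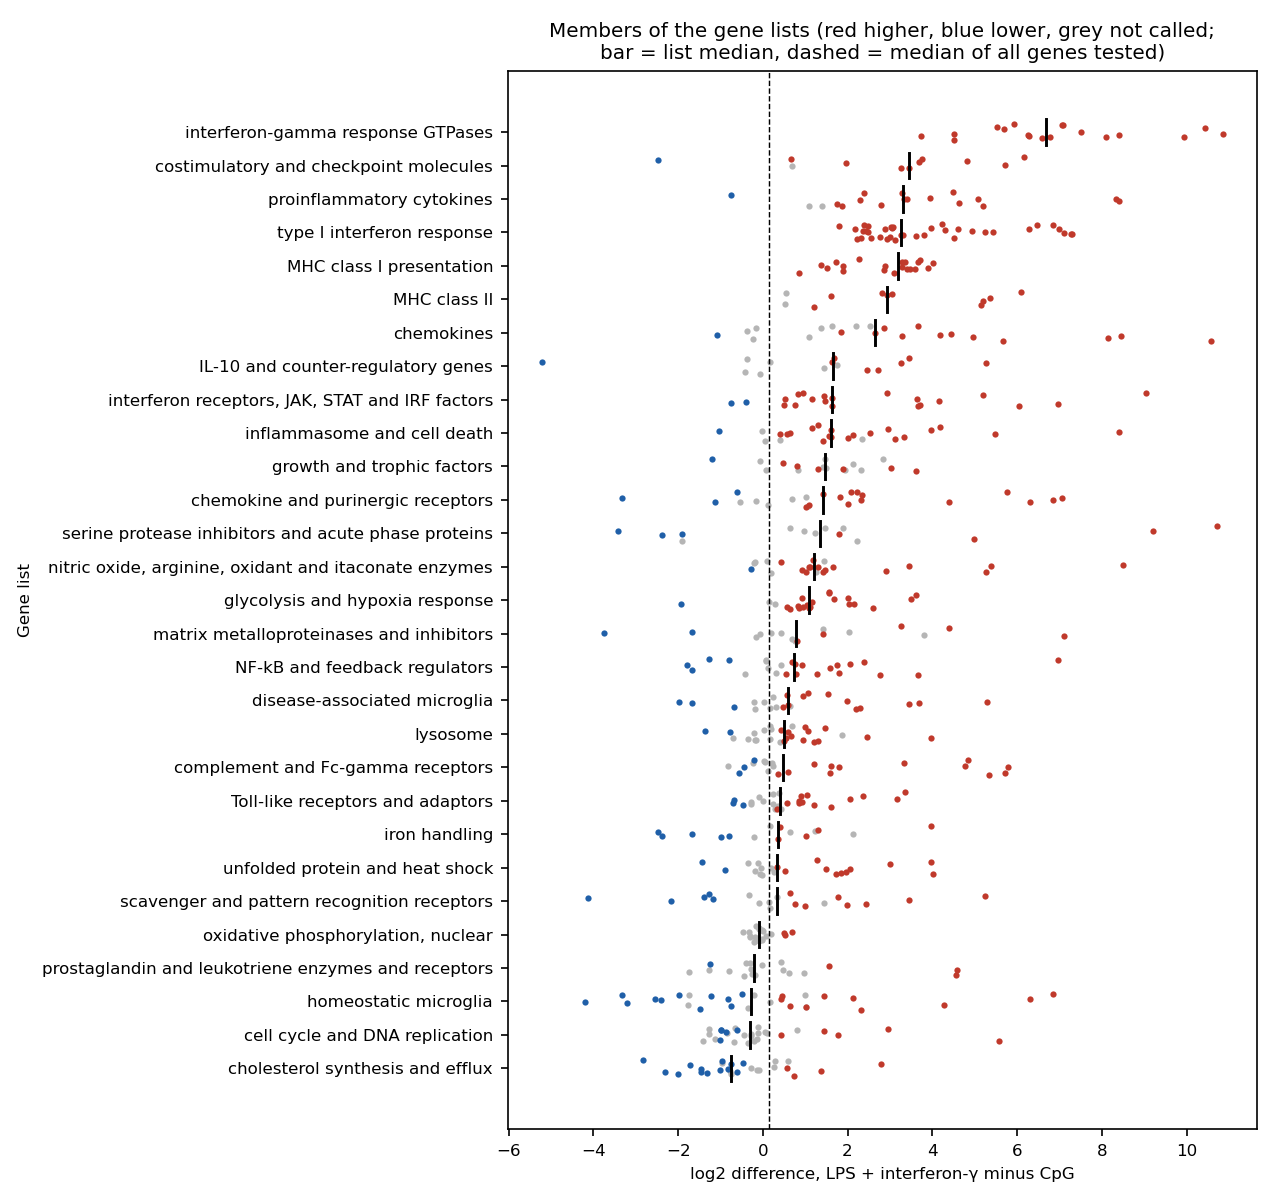
Log2 difference of every tested member of 29 gene lists, 1 point per gene, ordered by the list median (bar), with the median of all genes tested as a dashed line. The GTPases of the interferon-γ response lie highest, with a median of 6.68, and cholesterol genes lowest, with a median of -0.75. Without CpG replicate 1, not drawn here, cell cycle genes had the lowest median (-0.99, against -0.58 for cholesterol genes).

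The same pair of stimuli was compared in the libraries labelled CB2-/-. Genotype and the number series of the libraries are the same split for stimulated cells, so the 2 cannot be told apart in what follows. Cnr2, the targeted gene, was above 0 in all 6 of these libraries, at 217, 229 and 234 with LPS plus interferon-γ and 287, 301 and 320 with CpG. Wild-type libraries with these stimuli had 22, 18.3 and 20.7 and 0, 2.78 and 16.1, and unstimulated wild-type libraries 178, 230 and 233. The gene-level value thus did not mark the genotype, which rests on the labels. In the CB2-/- comparison 1493 genes (10.2%) were called, and of the 4812 genes called in wild type 4223 (87.8%) had the same sign. The difference between the genotypes was called for 917 genes (6.25%) with the larger value in wild type and 258 (1.76%) with the smaller. Without CpG replicate 1 of wild type these counts were 862 and 207.

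Interferon-induced genes separated the stimuli less widely in the CB2-/- libraries. All 37 genes of the type I interferon response differed between the genotypes, with a median of 3.25 in wild type and 1.35 in CB2-/-. Of the 18 interferon-γ GTPases 13 differed (medians of 6.68 and 4.15) and of the 20 class I genes 16 (3.18 and 1.34). Irf7 had a mean of 5778 ± 291 with CpG in CB2-/- cells and 1218 ± 61.2 in wild type, while with LPS plus interferon-γ the means were 16143 ± 43.1 and 22058 ± 2285 (difference of 2.69 ± 0.13, adjusted p = 2.92e-12, limma, BH). Gbp4 differed between the genotypes by 5.36 ± 0.43, with CpG means of 199 in CB2-/- and 14.6 in wild type. Its means with LPS plus interferon-γ were 8626 and 28360. In Cxcl9, Cxcl11, Serpina3f and Serpina3g the genotypes did not pass the test (1.01 to 2.04, the smallest adjusted p being 0.39, limma, BH).

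Several inflammatory genes separated the stimuli by less in CB2-/- cells than in wild type, or the other way round, and for these the difference itself passed. Nos2 had 14211 ± 807 with LPS plus interferon-γ and 4718 ± 484 with CpG in CB2-/- cells (SD, n = 3 each), a log2 difference of 1.59 (adjusted p = 0.295, limma, BH) against 8.51 in wild type. Its CB2-/- libraries did not overlap between the stimuli, and the SE was 0.82 in both genotypes because all groups share the spread. The genotypes differed by 6.91 ± 1.16 (adjusted p = 2.43e-04, limma, BH), by 5.50 without CpG replicate 1 of wild type, and by the same 6.91 without the series term, where the adjusted p was 0.0547. Il12b turned its sign: its CB2-/- means were 487 with LPS plus interferon-γ and 2445 with CpG (-2.33, adjusted p = 0.00919, limma, BH), against 2.78 in wild type, a difference of 5.10 ± 0.83 (adjusted p = 1.75e-04, limma, BH), or 4.26 without that library. Il6, Il1b and Ptgs2 had log2 values of 0.59, 0.25 and 0.51 in CB2-/- cells, where none passed although the libraries of the stimuli did not overlap, and each differed from wild type (4.49, 3.03 and 4.05). Without CpG replicate 1 of wild type the differences of Il6 and Ptgs2 were 3.46 and 3.45. Tnf had CB2-/- means of 2865 and 2868 with the 2 stimuli, and differed from wild type by 1.87. Tlr9 stood at 206 and 164 in CB2-/- cells, a log2 value of 0.32 against 3.16 in wild type. Cytip, a partner of cytohesin in leukocytes, Havcr2 and Dnase1l3, a secreted DNase, had differences between genotypes of 6.39, 5.59 (4.01 without that library) and 5.37.

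On the CpG side the picture was mixed. Il10 had CB2-/- means of 34.7 with LPS plus interferon-γ and 611 with CpG, a log2 value of -4.15 against -5.22 in wild type, and the genotypes did not pass the test (-1.07 ± 1.08, adjusted p = 0.682, limma, BH). Cd300e, Shisa3 and Lox likewise had values of -3.15, -3.10 and -3.03 in CB2-/- cells, and their differences of -1.13 to -0.92 did not pass. Nhs, Arhgap26 and Dmxl1 had values nearer 0 in CB2-/- cells, at -0.65, -0.51 and -1.50. Their larger differences of -3.43, -3.42 and -3.53 did not pass either (adjusted p = 0.0689, 0.0797 and 0.312, limma, BH). Slc13a3 was lower in both (-6.79 and -3.52), with a difference of -3.27 ± 0.71. Raver2, Lrmp, Cd244 and Adk, the adenosine kinase gene, had differences of -4.74, -3.57, -3.26 and -2.77; Raver2 missed the threshold when wild-type LPS replicate 1, CB2-/- LPS replicate 3 or CB2-/- CpG replicate 3 was left out.

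**Figure D5:**
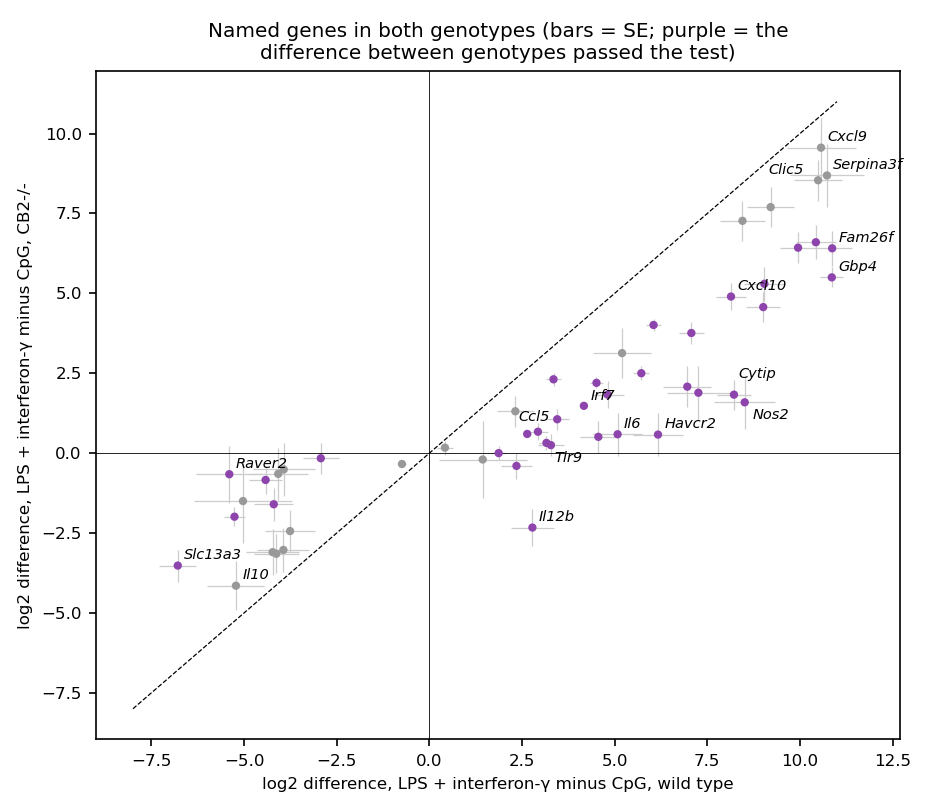
Log2 difference between LPS plus interferon-γ and CpG in wild type (horizontal) and in CB2-/- (vertical) for the named genes, with SE as bars and the line of equal values dashed. Nos2 lies at 8.51 in wild type and 1.59 in CB2-/-, while Cxcl9 lies close to the line at 10.57 and 9.56.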

How the data were processed

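RNA of the 27 libraries was sequenced in single-end reads of 75 bp, per the labels' protocols, which describe a TruSeq v2 and a SMART-Seq2 low-input protocol but do not assign libraries to them. The tools were CASAVA 1.8, kallisto and DESeq2, per the submitters' processing notes; the sources used here do not give the genome build. Normalised counts, as deposited by the authors, were read as a signal with no negative values. Between 45.9 and 64.3% of the low values in the 6 libraries were whole multiples of the smallest step (tolerance 0.01). The authors' batch-corrected table, deposited on a log2 scale, served as an alternative only.

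Values were taken as log2(value + 1). The test took 14668 of 23995 genes, those reaching 10 in 3 or more libraries. It used R 4.3.3 and limma 3.58.1 (eBayes with trend, two-sided, BH across the genes tested) on the 27 libraries together, with terms for group and for number series (3012 to 3023 against the others). Calls needed an adjusted p under 0.05. The fit was tested on simulated data. Replicates differed beyond sampling noise (chi-square per degree of freedom 6.64 to 46.1), so none were merged.

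Named genes are the 12 highest and 12 lowest called differences whose higher group averaged 100 or more, with no overlap and a gene symbol, up to 3 called members at each end of a list, a panel of 30 genes (1 of them and some list members are not reported here), and the 5 highest and 5 lowest differences between genotypes; the genes just outside the 2 sets of 12 were Gbp8 (8.40) and Abcb4 (-3.83). C3, Cnr2, Dhx58, Dusp1, H2-M3 and Irgm2 were chosen after their values were seen. The comparison, the 29 functional, 3 library and 9 cell type lists and the rules were chosen with earlier results of these data known. Positions are from GENCODE M21 on GRCm38, and 23933 of 23995 identifiers matched. Alternatives varied the pseudocount (0.5 and 10), filter, scaling, series term, weights, variance model, fold threshold, input table and the libraries in the fit. Python 3.11.15 with pandas 2.3.3 and matplotlib 3.10.9 made the figures. Promoter windows are from RefSeq; 6 of the 12 highest and 5 of the 12 lowest genes had one.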

Additional observations from a re-analysis of the deposited data

Results flagged for a closer look

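For 76 genes named in the report the log2 difference between LPS plus interferon-γ and CpG was another one in wild type than in the libraries labelled CB2-/-, by the test of that difference (adjusted p under 0.05, limma, BH). The value in brackets is the wild-type log2 difference minus that in CB2-/-, so a positive value means that wild type leaned further to LPS plus interferon-γ. Genotype and library number series cannot be told apart in all of them, and the numbers in brackets do not say which of the 4 groups moved. Without CpG replicate 1 of wild type all 76 kept their sign, 70 still passed and 25 moved by over 1.5 times. Tmem119, Tlr3, Ifngr2, Ebi3, Mmp25 and Mmp13 did not pass without it.

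Among interferon-induced GTPases and antiviral genes the values were Gbp4 (5.36), Gbp2 (3.30), Iigp1 (3.83), Tgtp2 (3.52), Irgm2 (0.71), Ifit1 (2.31), Ifit2 (3.27), Ifit3b (5.15), Rsad2 (4.22), Dhx58 (1.00), Trim30c (4.44) and Fam26f (4.46). Among factors and receptors of interferon signalling they were Irf1 (2.05), Irf7 (2.69), Socs1 (4.88), Batf2 (3.73) and Ifngr2 (-0.44). Antigen presentation and checkpoint genes had Tapbpl (1.23), H2-T23 (2.70), H2-Ab1 (2.27), Cd86 (3.22), Cd40 (2.98), Havcr2 (5.59), Cd274 (2.36) and Vsir (-1.28). Toll-like receptors and NF-κB regulators had Tlr9 (2.84), Tlr3 (1.04) and Tnip3 (-1.38).

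Of cytokines and chemokines, the differences were Il6 (4.49), Il12b (5.10), Tnf (1.87), Il1b (3.03), Il1a (5.00), Tnfsf10 (3.34), Tnfsf15 (4.33), Ebi3 (-0.71), Cxcl10 (3.23) and Ccl5 (2.04). Enzymes, transporters and proteases gave Nos2 (6.91), Arg2 (3.12), Slc7a2 (3.18), Acod1 (2.39), Ptgs2 (4.05), Ptger2 (3.50), Mmp25 (3.996), Mmp13 (2.15), Timp2 (-1.51), Serpinb9 (3.17), Dnase1l3 (5.37), Adk (-2.77) and Slc13a3 (-3.27). Acute phase, complement and cell death genes gave Hp (-3.35), Saa3 (-1.50), C3 (0.88) and Mlkl (3.16).

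Genes of resting or disease-associated microglia and of chemokine and purinergic reception had Tmem119 (-2.61), Cx3cr1 (-1.92), Olfml3 (-2.20), Mertk (1.80), Entpd1 (4.47), P2ry13 (2.83), Cxcr4 (2.75), Cst7 (2.75), Lgals3 (3.67) and Gpnmb (3.44). Metabolic genes had Abcg1 (2.28), Abca1 (0.84), Sqle (-1.95), Vegfa (3.80), Hk3 (1.74) and Pfkp (2.44). The others were Cytip (6.39), Raver2 (-4.74), Cd244 (-3.26), Lrmp (-3.57) and Cnr2 (2.82). Cnr2 is the gene targeted in the CB2-/- mice.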

How the results depend on the processing

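The wild-type count of 4812 genes moved to 2903 (958 of them lower) when a log2 difference of at least 1 was also required. Scaling to the same sum gave 1442 higher and 3157 lower, and for the difference between genotypes 365 called, 282 higher and 83 lower. The genes lower in that difference, 258 as reported, numbered 155 without the series term, 404 with library weights and 399 in the authors' batch-corrected table. Leaving out 1 library at a time gave 4040 to 5182 called in wild type (2432 to 3244 higher, 1584 to 1938 lower) and 952 to 1577 for the difference (757 to 1205 higher, 185 to 372 lower). The highest counts of both came without CpG replicate 3 of wild type. Fits on 12 or on the 6 compared libraries called 3720 and 3275 genes.

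Arg1 turned from 1.44 to -0.13 with library weights, -0.26 in the batch-corrected table and ran from -0.62 (without CpG replicate 1) to 2.61 (without CpG replicate 3) when 1 library was left out, and Tlr4 from 0.42 to -0.04 with same-sum scaling; neither passed the test. Of 122 results on single genes 106 kept their direction and their side of the threshold under all alternatives run for them. The tally does not hold every named difference between genotypes. Those of Tmem119, Tlr3, Ifngr2, Ebi3, Mmp25 and Mmp13, which lost their call without CpG replicate 1 of wild type, are outside it. The cause of these changes was not tested, except that the added fold threshold and the smaller fits use fewer genes or samples by construction. No paired analysis was possible because the labels give the libraries no shared replicate numbers. Whole reads could not be recovered from the values, so no count model was run.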
